A study of Homo sapiens with 12 samples.

Results

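Aminoacyl-tRNA synthetases attach each amino acid to its own tRNA, and the 40 genes described here encode these enzymes and the 3 scaffold proteins that hold some of them together. The genes were found by name, as every row of the 2 expression tables whose symbol is a letter followed by ARS with or without a number from 1 to 3, or is that of the glutamate and proline enzyme, a subunit of the cytosolic phenylalanine enzyme or a scaffold protein. This gave 48 rows among 16406 in the table of motor neurons (iMNs) and 49 rows among 19016 in the table of glutamatergic neurons (i3Ns), which belong to the same 40 symbols. They comprised 20 genes for cytosolic enzymes, 17 for mitochondrial enzymes, whose names end in 2, and *AIMP1*, *AIMP2* and *EEF1E1* for the scaffold proteins. *AIMP2* ends in 2 as well but encodes a cytosolic scaffold protein, and it was not counted as mitochondrial. The tables use older symbols for the cytosolic enzymes (AARS for *AARS1*), and the current ones are used below. *TARSL2*, today named *TARS3*, was missed by the name rule for this reason and is not among the 40.

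A synthetase recognises its amino acid and its tRNA, joins them at the cost of ATP, and so decides which amino acid a codon stands for. Cytosolic and mitochondrial ribosomes use separate sets of tRNAs, and most amino acids therefore have a cytosolic enzyme and a mitochondrial one, both encoded in the nucleus. *GARS1* and *KARS1* each give rise to both forms, *EPRS1* encodes 1 protein with the activities for glutamate and proline, and no separate mitochondrial enzyme exists for glutamine. Several cytosolic enzymes assemble with the scaffold proteins into the multisynthetase complex. Dominant mutations in some cytosolic synthetase genes cause axonal neuropathy of the Charcot-Marie-Tooth type, in which long motor and sensory axons degenerate, and recessive mutations in others cause disorders of white matter.

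The study lowered SMN, the protein whose level is decreased in spinal muscular atrophy, in neurons of 2 kinds. The iMNs came from induced pluripotent stem cells with a Td-Tomato reporter under the HB9 promoter and were sorted on it, and the i3Ns from H1 human ES cells induced to express NGN2. Each kind received a lentivirus with a doxycycline-inducible shRNA, either against *SMN1* and *SMN2* (*SMN*-KD) or scrambled (SCR), for 12 days, and 3 libraries were sequenced for each of the 4 groups. Each kind of neuron came from 1 stem cell line, so that line, protocol and cell type cannot be told apart.

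The values below are means over the 6 libraries of 1 kind of neuron, SCR and *SMN*-KD together, of read counts that the authors had normalized for library size. No library was available on its own here, so no SD, n or test goes with any value, no replicate was compared with another, and no difference between *SMN*-KD and SCR neurons is given. A gene that responded to the knockdown enters with the average of its levels in both groups. The spread between replicates being unknown, neighbours with similar levels in an order cannot be ranked. Summed over all genes, the means came to 4.33e+07 in iMNs and 4.50e+07 in i3Ns. Depth per library is unknown. *SMN1* and *SMN2*, the near-identical genes that the shRNA targets, had a mean of 1174 together in iMNs and 1079 in i3Ns, which does not check the knockdown because it pools both groups.

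The markers of the labelled cell types were mixed. The choline transporter gene *SLC5A7* was 3.67-fold and the vesicular acetylcholine transporter gene *SLC18A3* 1.79-fold higher in iMNs, whereas *MNX1*, which encodes HB9, was 4.95-fold and *ISL1* 8.02-fold higher in i3Ns. *LHX3* had means of 15.1 in iMNs and 230 in i3Ns, and *CHAT* of 533 and 527. The glutamate transporter genes *SLC17A6* and *SLC17A7* were 17.7-fold and 121-fold higher in i3Ns. The cortical marker *TBR1* had means of 10.2 in iMNs and 1801 in i3Ns, and *NEUROD6* was listed in neither table. All 5 neuronal markers were listed in both, among them *TUBB3* at percentiles 99.9 and 99.9. The glial markers *GFAP*, *AQP4* and *SOX10* were listed in neither. All 3 markers of dividing cells had higher means in i3Ns, at 28.3 in iMNs and 522 in i3Ns for *MKI67*, 22.5 and 311 for *TOP2A* and 162 and 249 for *CCNB1*. Of the pluripotency markers, *LIN28A* had means of 215 and 4216, while *POU5F1* and *NANOG* were listed only in i3Ns, at 34.4 and 7.73. The mesenchymal *COL1A1* had means of 1321 and 4228 and *COL3A1* of 507 and 1053, and *DCN* was listed only in i3Ns at 3.89. Their part in the values of the synthetases was not tested.

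To compare genes, each mean was divided by the length of the gene's MANE Select transcript, the reference transcript agreed for that gene, and is given as normalized counts per kilobase. Where a symbol had several identifiers their means were summed. The cytosolic enzymes were abundant. Their median level was 1668 normalized counts per kilobase in iMNs and 1534 in i3Ns, at the median percentiles of 89.4 and 89.8 among all genes with a length.

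*SARS1*, which charges serine tRNA (chromosome 1, 109213918 to 109238182, GRCh38), had the highest level of the 40 genes per kilobase of transcript in both kinds of neuron, 3350 normalized counts per kilobase in iMNs and 4956 in i3Ns. It was followed in iMNs by *YARS1* for tyrosine at 3018 and *AARS1* for alanine at 2536. In i3Ns the next were *MARS1* for methionine at 3251 and *GARS1* for glycine (chromosome 7, 30580533 to 30634033) at 3059. The 2 genes that serve both compartments, *GARS1* and *KARS1*, stood at 1944 and 2187 in iMNs and at 3059 and 2821 in i3Ns, above the median of the cytosolic class throughout.

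Among the lowest of the cytosolic class was *FARSB*, a subunit of the enzyme for phenylalanine, with 440 normalized counts per kilobase in iMNs and 291 in i3Ns. *NARS1* for asparagine was also low in iMNs, at 807, and *LARS1* for leucine in i3Ns, at 914.

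Part of this order came from the length used. *FARSA* and *FARSB* encode the 2 subunits of 1 enzyme for phenylalanine, in which each subunit is present in the same number. Per kilobase of transcript, *FARSA* was 3.19 times as high as *FARSB* in iMNs and 3.48 times in i3Ns. The reference transcript of *FARSB* is 6761 bases long, of which 1764 code for protein. Per kilobase of coding sequence, the ratio of *FARSA* to *FARSB* was 0.990 in iMNs and 1.08 in i3Ns. The top of the order changed too in iMNs, where *YARS1* had 4664 normalized counts per coding kilobase and *SARS1* 4166. In i3Ns *SARS1* stayed highest, at 6164.

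**Figure D1:**
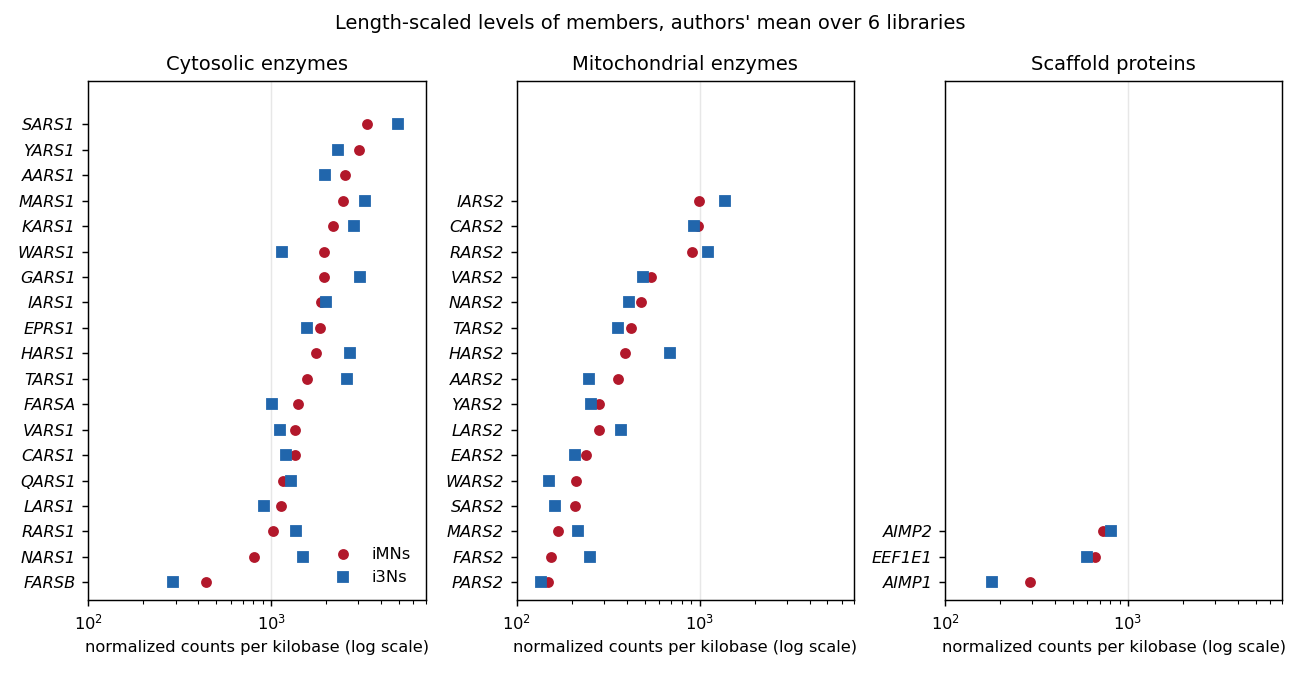
Level of 38 of the 40 genes in iMNs (red circles) and i3Ns (blue squares), as the authors' mean normalized count over 6 libraries per kilobase of reference transcript, on a log axis. No error is shown, since values per library were not used. Among cytosolic enzymes *SARS1* is highest at 3350 in iMNs, and mitochondrial ones reach from 148 to 994.

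The mitochondrial enzymes were expressed at lower levels. Their median was 283 normalized counts per kilobase in iMNs and 256 in i3Ns, at percentiles 49.8 and 53.6. The ratio of the class medians, cytosolic over mitochondrial, was 5.91 in iMNs and 6.12 in i3Ns from the identifier on the primary assembly, and 5.89 and 5.99 with identifiers summed. With coding length in place of transcript length the summed ratios were 3.58 and 4.97. The classes overlapped at their edges. In iMNs 17 of the 20 cytosolic enzymes were above every mitochondrial one, and in i3Ns 11 were. No mitochondrial enzyme reached the median of the cytosolic class in either kind of neuron.

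At the top of the mitochondrial class were *IARS2* for isoleucine (chromosome 1, 220094132 to 220148041), *CARS2* for cysteine and *RARS2* for arginine. They had 994, 976 and 906 normalized counts per kilobase in iMNs. In i3Ns *IARS2* stood at 1376, *RARS2* at 1114 and *CARS2* at 933. Each of these 3 was above 1.5 times the level of the next gene of the class, *VARS2* in iMNs at 539 and *HARS2* in i3Ns at 693, except *CARS2* in i3Ns. The lowest in iMNs were *PARS2* for proline (148), *FARS2* for phenylalanine (153) and *MARS2* for methionine (169). In i3Ns they were *PARS2* (136), *WARS2* for tryptophan (150) and *SARS2* for serine (163). All 17 had a summed mean of at least 100 in both tables, so that none was near the lower limit of detection.

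Within a kind of neuron the 2 classes were about equally spread. The SD of log2 levels among genes was 0.81 for cytosolic and 0.92 for mitochondrial enzymes in iMNs and 0.95 and 1.02 in i3Ns, which describes differences between genes and not an error. The order of levels was alike in iMNs and i3Ns. Spearman's rho over the 40 genes was 0.931, and within the classes it was 0.750 for cytosolic and 0.868 for mitochondrial enzymes. Both axes share the gene lengths, and this is a description across genes.

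Paired by amino acid, every cytosolic enzyme was above its mitochondrial counterpart, although the margin varied widely. With *EPRS1* set against both *EARS2* and *PARS2*, and *FARSA* and *FARSB* each against *FARS2*, there were 18 pairs, and the median ratio was 4.27 in iMNs and 3.97 in i3Ns. Serine had the widest margin, with *SARS1* at 16.1 times the level of *SARS2* in iMNs and 30.4 times in i3Ns. Methionine had 14.7 and 15.0. *EPRS1* was 12.5 and 11.6 times as high as *PARS2* for proline, and *YARS1* 10.7 and 9.06 times as high as *YARS2*. A middle group held tryptophan (9.22 and 7.71), *EPRS1* over *EARS2* for glutamate (7.70 and 7.54) and alanine (7.05 and 7.90). Histidine (4.51 and 3.90), leucine (4.02 and 2.47) and threonine (3.75 and 7.33) lay near the median of the pairs in iMNs, above valine (2.50 and 2.27). The narrowest margin in i3Ns was that of *FARSB* over *FARS2*, at 1.16 times. In iMNs it was that of arginine, with *RARS1* at 1.14 times the level of *RARS2*, against 1.23 times in i3Ns. On coding length this pair had a ratio of 0.941 in iMNs and 1.02 in i3Ns, so that its direction rests on the length used. It was the only pair with a ratio under 1 on either length. Coding length moved other pairs by over 1.5 times as well. The ratio of *EPRS1* to *EARS2* became 2.49 in iMNs and 2.44 in i3Ns, and that of *FARSB* to *FARS2*, 2.87 and 1.16 on transcript length, became 8.84 and 3.58. *EPRS1* over *PARS2* became 8.07 and 7.51 and *MARS1* over *MARS2* 8.95 and 9.13, below the 11.1 and 9.45 of *YARS1* over *YARS2*, so the order below serine rests on the length used. Cysteine was also nearly balanced, with *CARS1* at 1.38 and 1.29 times the level of *CARS2*, and isoleucine had ratios of 1.90 and 1.44.

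These ratios can be set side by side between iMNs and i3Ns without any scaling between the tables, because both genes of a pair come from the same table and their lengths cancel. The log2 ratio was higher in iMNs for 11 pairs and higher in i3Ns for 7, with a median difference of 0.10. It differed by more than 1 for 3 pairs, but those for phenylalanine share *FARS2* and are not separate observations. The share of other pairs of genes past this difference was not computed. Asparagine had a *NARS1* to *NARS2* ratio of 1.68 in iMNs and 3.64 in i3Ns, a difference of -1.12. Phenylalanine went the other way, with *FARSA* at 9.14 times *FARS2* in iMNs and 4.04 times in i3Ns (1.18) and *FARSB* at 2.87 and 1.16 times (1.30). Threonine and serine came close to this size, with differences of -0.97 for *TARS1* and *TARS2* and -0.92 for *SARS1* and *SARS2*. For methionine and for glutamate the ratios were nearly the same in both kinds of neuron (differences of -0.03 and 0.03). Whether any of these differences exceeds the spread between libraries was not tested.

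**Figure D2:**
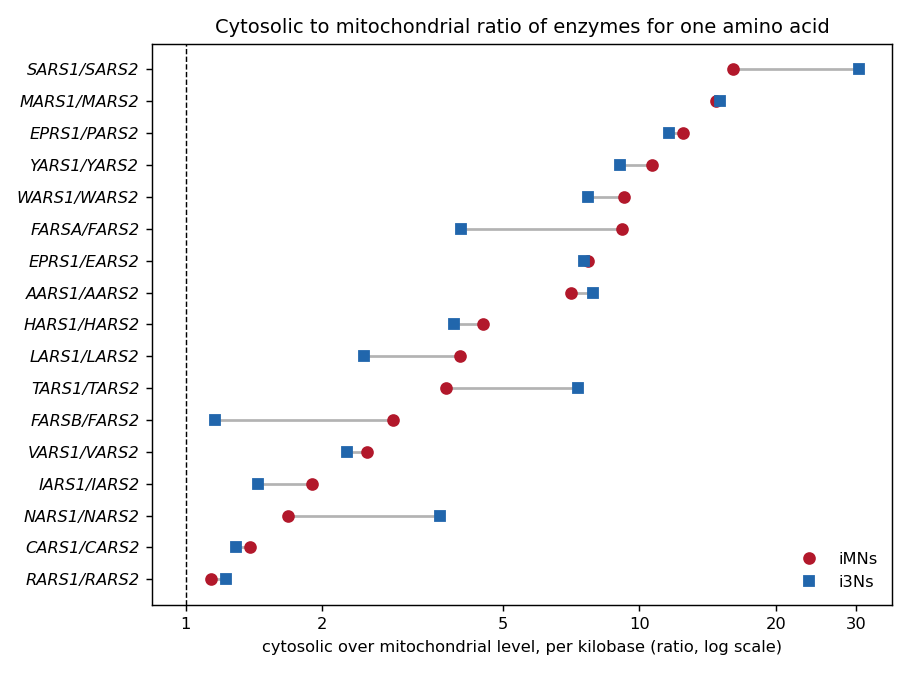
Ratio of the cytosolic to the mitochondrial enzyme for the same amino acid in iMNs (red circles) and i3Ns (blue squares), per kilobase of reference transcript on a log axis, with a grey line joining the 2 values of a pair and a dashed line at equal levels. The 17 pairs drawn lie to the right of the dashed line, from 1.14 to 16.1 in iMNs and from 1.16 to 30.4 in i3Ns.

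The multisynthetase complex holds 8 of the enzymes and the 3 scaffold proteins. Its 11 genes spanned an 8.51-fold range of levels in iMNs and a 17.9-fold range in i3Ns. *MARS1* (2482 and 3251 normalized counts per kilobase), *KARS1* (2187 and 2821), *IARS1* (1885 and 1987) and *EPRS1* (1845 and 1574) were highest in both. *QARS1* for glutamine (1162 and 1276), *LARS1* (1136 and 914) and *RARS1* (1029 and 1366) lay below these.

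The scaffold proteins were lower than most of the enzymes they bind. *AIMP2* had 726 normalized counts per kilobase in iMNs and 811 in i3Ns, *EEF1E1*, also known as AIMP3, 661 and 598, and *AIMP1* 292 and 181. On coding length *AIMP1* had 867 and 539, *AIMP2* 909 and 1015, and *EEF1E1* 1334 and 1206. The values of the latter 2 are less certain than those of other genes. The reference transcript of *AIMP2* overlaps exons of *EIF2AK1* on the opposite strand over 532 bases, 44.4% of its length. That of *EEF1E1* shares 393 bases, 37.5% of its length, with the read-through gene *EEF1E1-BLOC1S5*. The methods do not state whether counting used the strand. Overlaps with other genes covered 4.90% of the transcript of *AARS2* and 2.15% of that of *MARS1*.

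The 6 genes best known for dominant neuropathy, *AARS1*, *GARS1*, *HARS1*, *MARS1*, *WARS1* and *YARS1*, were all above the median of the cytosolic class in iMNs, at 1761 to 3018 normalized counts per kilobase. In i3Ns 5 of the 6 were above it, and *WARS1*, which charges tryptophan, was below. Relative to i3Ns, 3 of the 6 were higher in iMNs and 3 were lower. *WARS1* differed most, at 1.82-fold higher in iMNs, and *YARS1* and *AARS1* were 1.39-fold and 1.38-fold higher. The levels behind these were 1953 and 1153 normalized counts per kilobase for *WARS1* in iMNs and i3Ns, 3018 and 2321 for *YARS1* and 2536 and 1969 for *AARS1*. *GARS1*, *HARS1* and *MARS1* were 1.47-fold, 1.43-fold and 1.22-fold higher in i3Ns.

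The 9 genes linked to white matter disorders were more varied, since the list draws on all 3 classes. *KARS1* was the highest of them, at 2187 normalized counts per kilobase in iMNs and 2821 in i3Ns, and *AIMP1* was at 292 and 181. *EARS2* for glutamate had 240 and 209, and *AARS2* 360 and 249. Against i3Ns, 4 of the 9 were higher in iMNs and 5 were lower.

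Levels in iMNs were then set against those in i3Ns. The tables had been normalized separately, so each log2 ratio was centred on the median ratio of genes with a mean of at least 100 in both tables, which took off -0.10. Counted by the identifier on the primary assembly, 2 of the 40 genes were past 2-fold, against 24.6% of the 16093 identifiers in both tables. Both of these, *VARS1* and *VARS2*, lie in the major histocompatibility region of chromosome 6, for which the tables also list identifiers on alternate sequences of the assembly. With all identifiers of a symbol summed, none of the 40 genes was past 2-fold, against 14.9% of 11892 symbols with a mean of at least 100 in both tables. *VARS1* for valine (3 identifiers in each table) was then 1.30-fold and *VARS2* (6 in iMNs and 7 in i3Ns) 1.18-fold higher in iMNs. *CARS1* was the third gene with more than 1 identifier, and the other 37 had 1. The summed values are used below.

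Past 1.5-fold were 9 of the 40 genes (22.5%), against 33.3% of the same 11892 symbols. The median size of the log2 ratio, whatever its sign, was 0.34 for the 40 genes and 0.39 for all of these symbols. Higher in iMNs were *WARS1* (1.82-fold), the scaffold gene *AIMP1* (1.72-fold), *FARSB* (1.62-fold), *AARS2* (1.55-fold) and *WARS2* (1.52-fold). Higher in i3Ns were *NARS1* (1.73-fold), *HARS2* (1.66-fold), *TARS1* (1.55-fold) and *FARS2* (1.52-fold). *NARS1* lay at percentile 9.08 of all these ratios and *WARS1* at percentile 88.6, so the most extreme members were within the range of ordinary genes.

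Neither class leaned far to one side. The median log2 ratio of iMNs over i3Ns was -0.01 for cytosolic enzymes, with 10 higher in each kind of neuron, and 0.23 for mitochondrial enzymes, with 10 of 17 higher in iMNs. The quartiles over all symbols were -0.36 and 0.43. With each table scaled to its total in place of the centring, 9 of the 20 cytosolic enzymes and 10 of the 17 mitochondrial ones were higher in iMNs, and the same numbers held without centring. As a share of the summed means of all genes, the 40 genes took 0.277% in iMNs and 0.284% in i3Ns, of which the cytosolic enzymes made up 0.225% and 0.230% and the mitochondrial ones 0.0467% and 0.0488%. Both genes of a pair leaned the same way in 11 of the 18 pairs, some of which share *EPRS1* or *FARS2*. The share among other pairs of genes was not computed, so this count says nothing about shared regulation. Tryptophan was one of the 11, with *WARS1* and *WARS2* both higher in iMNs. Histidine was another, with *HARS1* and *HARS2* both higher in i3Ns.

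**Figure D3:**
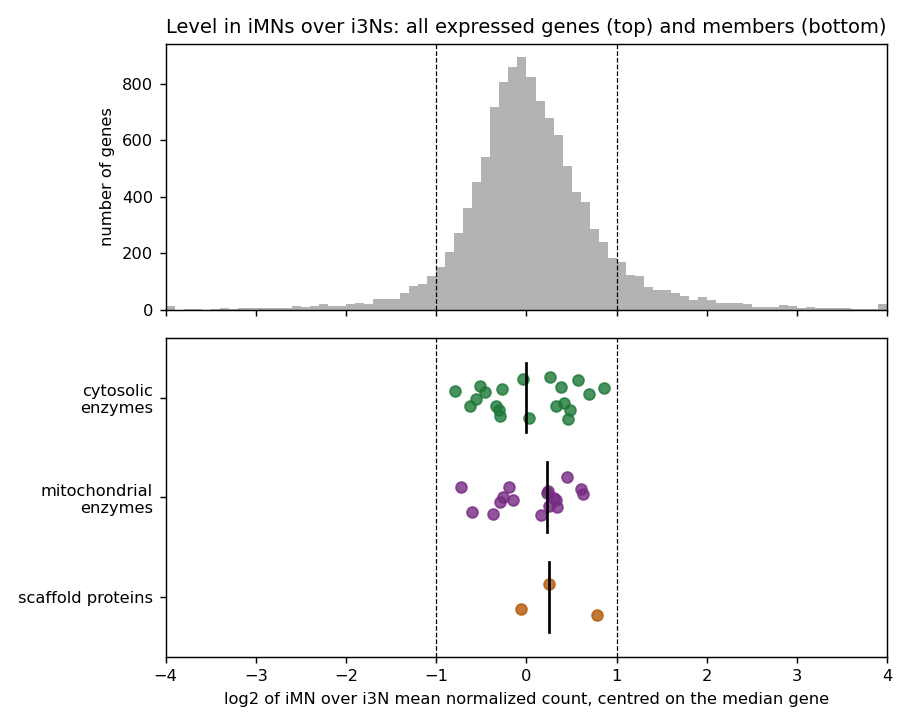
Log2 ratio of the mean normalized count in iMNs over that in i3Ns, centred on the median gene. The upper panel counts the 11892 symbols with a mean of at least 100 in both tables (values beyond 4 are drawn at 4), and the lower panel shows each member as a point, spread vertically for legibility, with a black bar at the median of its class. Dashed lines mark 2-fold, and all 40 members lie between them.

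Other genes that make or use charged tRNAs were followed with a list of 18. All 18 were in both tables, 8 were higher in iMNs and 10 in i3Ns, and 3 were past 2-fold, against the 14.9% of all symbols given above. *EEF1A1* and *EEF1A2* encode the factor that carries charged tRNAs to the cytosolic ribosome. *EEF1A1* was the higher one in both, at 40860 normalized counts per kilobase in iMNs and 63944 in i3Ns. *EEF1A2*, the form of mature neurons and muscle, was 2.61-fold higher in iMNs. The other 2 past 2-fold were *GATC*, 2.28-fold higher in iMNs, and *SEPSECS*, an enzyme of selenocysteine tRNA, 2.22-fold higher in i3Ns. GATC, GATB and QRSL1 form the amidotransferase that makes mitochondrial glutamine tRNA in the absence of a synthetase for it. *GATB* was 1.24-fold higher in i3Ns and *QRSL1* differed by a log2 ratio of -0.04, so only *GATC* of the 3 was past 2-fold. *TUFM*, the mitochondrial counterpart of the carrier, had 2482 and 2382 normalized counts per kilobase, more than any mitochondrial synthetase. *TARSL2* had a similar level in both kinds of neuron, 510 and 531.

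The promoters of the members were searched for the element that the stress transcription factor ATF4 binds together with C/EBP proteins, TGATGNAA on either strand, since cytosolic synthetase genes are among the known targets of ATF4. RefSeq promoters, 250 bases before to 50 after the gene start on GRCh38.p14, were matched for 33 of the 40 genes. *AARS2*, *LARS1*, *VARS1*, *VARS2* and *YARS1* were among those with no entry. The element was present in 6 of 16 cytosolic promoters (37.5%), 1 of 14 mitochondrial ones (7.14%) and none of the 3 of scaffold genes, against 2.54% of 15345 promoters of protein-coding genes. The latter share was not limited to genes listed for these neurons, whereas all 40 members were listed, so the sets are unlike.

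All 6 cytosolic matches carried the same 8 bases, TTGCATCA or its reverse complement, which occurs in 0.678% of the 15345 promoters. This narrower form was read from the matches themselves, so its lower share adds no separate comparison to that of the searched element. The matches are shown because they hold a sequence that these 6 genes share and the name rule did not use. Each is given from 5′ to 3′ along the strand of its gene, with the element in capitals.
*AARS1*, chr16:70289675-70289704, minus strand: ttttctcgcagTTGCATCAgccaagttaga
*CARS1*, chr11:3057407-3057436, minus strand: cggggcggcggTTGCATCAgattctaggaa
*IARS1*, chr9:92293692-92293721, minus strand: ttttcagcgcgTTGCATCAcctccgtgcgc
*MARS1*, chr12:57488053-57488082, plus strand: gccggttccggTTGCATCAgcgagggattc
*NARS1*, chr18:57621804-57621833, minus strand: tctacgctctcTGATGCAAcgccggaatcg
*TARS1*, chr5:33440956-33440985, plus strand: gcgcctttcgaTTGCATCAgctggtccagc

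In 5 of the 6 genes the element starts between 13 bases before and 14 bases after the RefSeq gene start, and in *AARS1* it starts 187 bases before it. The mitochondrial match, in *YARS2*, reads TGATGGAA and starts 197 bases before the gene start. The levels of cytosolic genes with and without the element overlapped. The 6 genes with it had a median of 1730 normalized counts per kilobase in iMNs and 1978 in i3Ns, and the 10 searched genes without it 1803 and 1470. Their median log2 ratios of iMNs over i3Ns were -0.13 and -0.15. A match is a description of these letters and not of binding.

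*HARS1* and *HARS2*, for histidine, start from a shared interval on chromosome 5 and are read in opposite directions. The reference transcripts begin 85 bases apart, *HARS1* on the minus and *HARS2* on the plus strand. Of the 84 bases between them, 59.5% are G or C, and other annotated transcripts of both genes reach into them.

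From this interval *HARS1* reached 1761 normalized counts per kilobase in iMNs and 2701 in i3Ns, and *HARS2* 390 and 693, ratios of 4.51 and 3.90. Both genes were higher in i3Ns, *HARS1* 1.43-fold and *HARS2* 1.66-fold. Starts on opposite strands within 1000 bases of another protein-coding gene were found for 11 of the 40 members (27.5%), against 10% of 20033 protein-coding genes. The latter share covers all annotated genes, also those not listed for these neurons, whereas all 40 members were listed, so the sets are unlike. Among the 11, *HARS1* and *HARS2* count as partners of each other. Besides the histidine pair the 11 included *AIMP1*, *AIMP2*, *EARS2*, *FARS2*, *KARS1*, *RARS2*, *SARS2* and *YARS1*. *SARS2* starts 181 bases from *MRPS12*, which encodes a protein of the mitochondrial ribosome, and *KARS1* 108 bases from *TERF2IP*.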

How the data were processed

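Total RNA was depleted of ribosomal RNA and sequenced as paired reads, and per the labels each kind of neuron had 3 SCR and 3 *SMN*-KD libraries. Per the labels and methods, the authors used fastp for trimming, Salmon for transcript quantification and DESeq2 for comparing the groups. Versions and the transcript annotation are not given in the sources used here, and hg38 is named for splicing only. The signal used is the column of means in each deposited table, for which the authors had DESeq2 scale each library's estimated counts by its size factor and average all 6. The 4 other numeric columns of each deposited table hold the authors' own comparison of *SMN*-KD with SCR (fold change, its error and p-values) and were not used. Depth per library is unknown, and so is the precision of each mean.

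Genes were matched by identifier to GENCODE release 44 (GRCh38), which gave positions, transcript lengths and coding lengths without the stop codon. In the tables, 693 and 878 identifiers had no match and no length. Ratios were computed in Python 3.11.15 with pandas 2.3.3, after the centring had been tested on simulated data. Percentiles refer to all genes of a table with a length. The identifier on the primary assembly was the main choice, and sums over identifiers were the alternative. Because alternate sequences split 3 symbols, the text gives summed values where not stated otherwise. Levels were given for all genes of the named lists and for the 3 highest and lowest of each class. Fold differences were given for members past 1.5-fold, and ratios for the pairs. Some members and markers that these lists hold are not reported here by name, and counts and medians include them. The members and lists were chosen with earlier results of these data known, and the motif, the shared starts, the subunit ratio and the shares by sums were added after the files had been seen.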

Additional observations from a re-analysis of the deposited data

How the results depend on the processing

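Values without replicates were counted as moved when they changed by over 10% (ratios) or 0.1 (log2). The ratio of cytosolic to mitochondrial medians in iMNs, 5.91, became 3.69 with coding length, 4.72 without length scaling and 5.28 without *GARS1* and *KARS1*, and with sums 3.58 on coding length and 4.43 as a geometric mean. In i3Ns, 6.12 became 4.95 without length scaling and 4.88 as a geometric mean, and with sums 4.97 on coding length and 4.55 as a geometric mean. All stayed above 1. The 2 members past 2-fold became 0 with identifiers summed, also when scaled to table totals or not centred, and 11 at 1.5-fold. The combinations with sums were chosen after seeing the data. The medians of the iMN over i3N log2 ratios moved by at most 0.10 under the alternatives run for them (other scalings and floors, and sums). No paired analysis was possible because no result comes from a test and values per library were not used, and no replicate could be left out for the same reason.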
